A study of Saccharomyces cerevisiae with 50 samples.

Results

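Swi4p and Swi6p binding was compared in wild-type Saccharomyces cerevisiae at gene promoters, taken as the 600 bp upstream of each gene start. A promoter counted as bound by Swi6p when it overlapped a called ChIP-Seq peak in both wild-type immunoprecipitations (IPs) and as bound by Swi4p when a Swi4p peak overlapped it, for which there was 1 wild-type IP. Of 6430 promoters, 387 fell into 3 classes. There were 102 promoters with Swi4p and Swi6p (1.59% of all promoters), 262 with Swi6p and no Swi4p peak (4.07%), and 23 with Swi4p and no Swi6p peak in either IP (0.358%). A further 20 promoters (0.311%) had Swi4p with Swi6p in 1 of the 2 IPs, 252 (3.92%) had Swi6p in 1 of the 2 IPs without Swi4p, and both groups were left outside the classes.

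Swi4p and Swi6p form SBF, the transcription factor that switches on genes at Start, the point in late G1 at which a yeast cell commits to division. Swi4p is the DNA-binding subunit. Swi6p carries no DNA-binding activity of its own and is also the partner of Mbp1p in MBF, a related factor known for the genes of DNA synthesis, while SBF is known for G1 cyclins, cell wall synthesis and budding.

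The strains are of the W303 background and carry c-myc epitopes at the C-terminus of 1 factor each. SWI4-myc and SWI6-myc with the cofactor intact are the wild-type strains here. In SWI4-myc swi6Δ (1 IP) and SWI6-myc swi4Δ (2 IPs) the cofactor gene was replaced by a kanamycin resistance marker. SWI4-myc cells were grown in rich medium with glucose at 30 °C to an OD600 of 0.8, and the methods do not name SWI6-myc separately. Cultures were not synchronised, so cells of all cell cycle stages were mixed, and fewer cells with a bound promoter cannot be told apart from weaker binding per cell. Swi4p and Swi6p were measured in different strains. The methods describe a culture that was split for the IPs of a factor, but elsewhere call the wild-type IPs biological triplicates. With SWI6-myc not named, the spread between the Swi6p IPs may be technical only. With 1 Swi4p IP no test between the factors was possible.

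The wild-type lists hold 73 Swi4p peaks, which overlapped 145 promoters (2.26%), and 228 and 204 Swi6p peaks, which overlapped 550 (8.55%) and 450 (7%) promoters. Swi6p was in both IPs at 364 promoters (5.66%) and in at least 1 at 636 (9.89%). The peaks are broad, with a median width of 1905 bp for Swi4p and of 2081 and 1683.5 bp for Swi6p, so neighbouring promoters often share a peak. The 102 promoters with both factors lay in 50 merged peak regions, the 262 with Swi6p and no Swi4p in 108, and the 23 with Swi4p and no Swi6p in 15. Read counts do not accompany the peaks and the depth of each IP is unknown, so a promoter without a peak is one where none was called, not one shown to be unbound.

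Of the 73 Swi4p peaks, 51 overlapped a Swi6p peak in both IPs, 8 in 1 IP and 14 in none. Where peaks of both factors met, their midpoints lay close together, at a median distance of 123 bp in Swi6p IP 1 and of 81 bp in IP 2. The distance was within 250 bp in 36 and 41 of 55 pairs.

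Each peak carries a score from the peak caller MACS, which grows with the evidence for enrichment over INPUT and stood at 3100 for the 10 strongest Swi4p peaks and the 5 strongest Swi6p peaks of each IP. The strongest Swi6p promoters were mostly those with Swi4p. The mean Swi6p score over the 2 IPs had a median of 788 (61 to 3100) at promoters with both factors and of 146 (52.0 to 2235) at those without Swi4p. The ranges overlapped, and the weakest promoters of either class were near the lowest scores of the lists, 50.21 and 50.07. The Swi4p score had a median of 1314 (53.3 to 3100) with Swi6p and of 125 (58.9 to 3100) without it. These medians describe the classes and were not tested, since calling the peaks formed the classes.

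**Figure D1:**
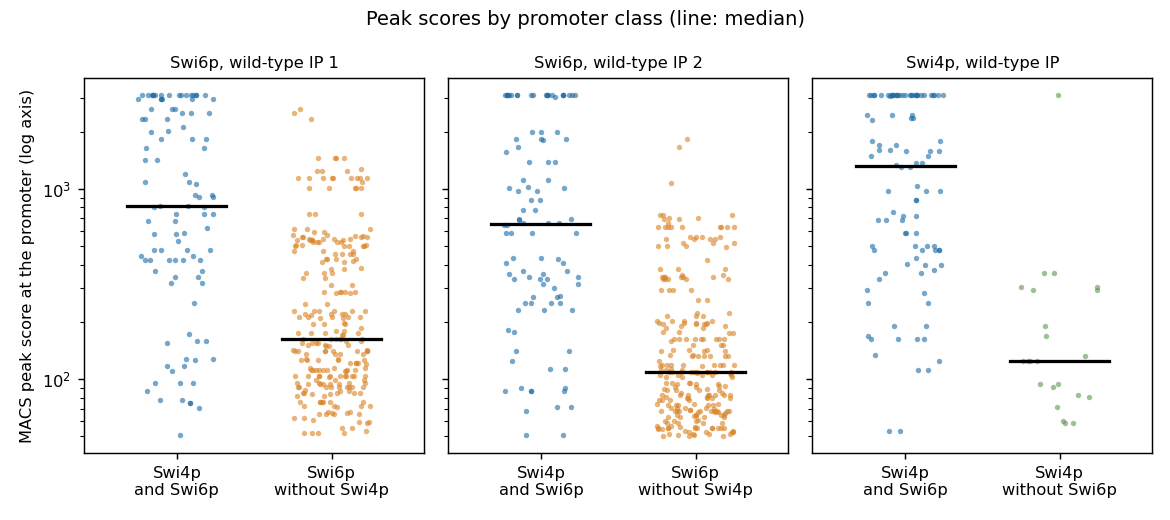
MACS peak score (log axis) of each promoter in Swi6p IP 1, Swi6p IP 2 and the Swi4p IP, all wild-type. Each point is a promoter, promoters under the same peak have the same score, and lines are medians. The medians of promoters with both factors are 812 in Swi6p IP 1 and 654 in IP 2, against 162 and 109 for Swi6p without Swi4p, and the ranges overlap in each panel.

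The promoters with both factors included the central genes of Start. Of 21 Start cyclins and regulators, 5 had both factors (23.8%, against 1.59% of all promoters), namely CLN1, CLN2, PCL1, PCL2 and SWI4. CLN2, a G1 cyclin that drives Start (promoter at chromosome 16, 66615 to 67214), had a score of 3100 in the Swi4p IP and in both Swi6p IPs. CLN1, its close relative (chromosome 13, 662044 to 662643), scored 3100 for Swi4p and 1192.99 and 1019.07 for Swi6p. Both G1 cyclins were therefore among the 10 Swi4p peaks with the top score.

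PCL1 and PCL2 encode cyclins of the Pho85p kinase. The PCL1 promoter scored 3100 in all 3 wild-type IPs, under a peak region of chromosome 14 from 86121 to 91546 that also covered MID1, SNR40, CAF40 and SEC21. PCL2 scored 754.71 for Swi4p and 86.46 and 124.61 for Swi6p. SWI4, the gene of the DNA-binding subunit itself, had 112.35 for Swi4p and 345.36 and 318.45 for Swi6p. SWI6 and MBP1 had no peak of either factor.

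Of 14 cell cycle transcription factor genes, HCM1, YHP1, PLM2 and NDD1 had both factors (28.6%, against 1.59% of all promoters) and none had Swi6p without Swi4p. HCM1, a forkhead activator of S phase genes, stood highest, with 2451.82 for Swi4p and 2644.20 and 1826.78 for Swi6p. YHP1, a homeobox repressor, scored 1789.01, 928.64 and 1015.29 in the same order. NDD1, an activator of mitotic genes, was close to the calling limit, at 162.17 for Swi4p and 74.92 and 50.77 for Swi6p. YOX1, also in this list, had Swi4p (455.69) but Swi6p in IP 1 alone (90.21) and so fell outside the classes.

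HO, the endonuclease of mating type switching and a long-studied SBF target, and the TOS genes, which were named as targets of SBF in earlier work, are not an independent list. Both factors were found at 6 of these 8 promoters (75.0%, against 1.59% of all promoters), HO, TOS1, TOS2, TOS3, TOS6 and TOS7. HO scored 285.40 for Swi4p and 125.57 and 71.63 for Swi6p, below TOS6 at 3100, 2323.59 and 1985.37. TOS4 had a Swi6p peak in IP 2 alone (225.82). The mitotic cyclin genes CLB1 and CLB2, which were in no list and were picked out after their values were seen, also had both factors, CLB1 at 338.30, 154.56 and 182.27 and CLB2 at 168.55, 50.90 and 71.19.

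Of the lists, cell wall genes gave the most promoters with both factors. Of 47 cell wall genes, 17 were in this class (36.2%, against 1.59% of all promoters). A further 3 had Swi6p without Swi4p (6.38%, against 4.07%) and none had Swi4p without Swi6p. The 17 were ECM33, PSA1, UTR2, MNN1, CRH1, SCW4, SIM1, HSP150, CIS3, CWP2, CCW12, EXG1, FKS1, SCW10, GAS1, SRL1 and SVS1. They include the glucan synthase FKS1, at 2314.87 for Swi4p and 1982.42 and 1566.49 for Swi6p. CCW12, a mannoprotein of the wall, scored 3100 in all 3 IPs. GAS1, which elongates glucan chains, was weaker, at 405.22 for Swi4p and 70.29 and 273.88 for Swi6p.

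Peaks at these genes often reached into the gene. The Swi6p peak midpoint lay downstream of the gene start for 9 of the 17 and inside the promoter for 8. At CCW12 the same region (chromosome 12, 368502 to 372111) also took in YLR108C, AHP1, YLR111W, YLR112W and HOG1, so the bound promoter cannot be told from its neighbours there.

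Of 38 genes of budding and polarity, both factors were at GIC1, GIC2, AXL2, SWE1 and HSL1 (13.2%, against 1.59% of all promoters), Swi6p without Swi4p was at CDC42 (2.63%, against 4.07%) and Swi4p without Swi6p at MSB2 and BUD9 (5.26%, against 0.358%). GIC2, an effector of the Cdc42p GTPase, scored 1329.34 for Swi4p and 583.48 and 583.39 for Swi6p. SWE1, the kinase that delays mitosis when budding fails, scored 252.01, 158.15 and 343.21. GIN4 and RSR1 had Swi4p with Swi6p in IP 1 alone. Of 14 genes of cell wall integrity signalling, the stress sensor WSC2 had both factors (7.14%, against 1.59% of all promoters). Of 18 spindle genes BBP1, which shares its region with CLN2, had both (5.56%).

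**Figure D2:**
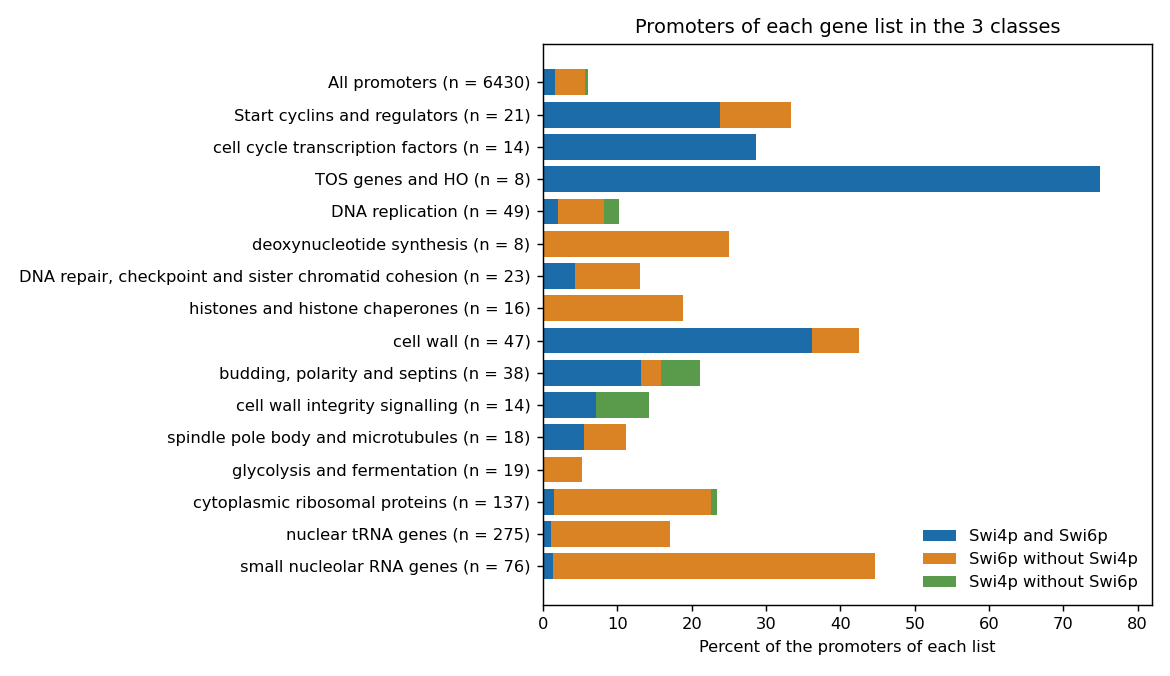
Percent of the promoters of each gene list in the 3 classes, stacked, with all 6430 promoters in the top bar and the size of each list in parentheses. Promoters with both factors make up 75.0% of the TOS and HO list and 36.2% of cell wall genes, and Swi6p without Swi4p 43.4% of small nucleolar RNA genes.

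Promoters with Swi6p and no Swi4p peak included those of a few S phase cyclin and DNA synthesis genes. They were a small part of the class, with 2 Start genes (0.763% of the 262) and 7 genes of DNA replication, deoxynucleotides and repair (2.67%). As shares of their lists they were 9.52% of 21 Start genes and 8.75% of 80 DNA genes, against 4.07% of all promoters. CLB5 and CLB6, cyclins that trigger DNA replication, were the Start genes of this class. CLB6 (chromosome 7, 706502 to 707101) scored 558.12 and 543.54 in the Swi6p IPs, while CLB5 (chromosome 16, 775183 to 775782) scored 55.37 and 58.83, near the calling limit. The agreement of the IPs was close at both.

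RNR1, the large subunit of ribonucleotide reductase, scored 419.17 and 498.02, and DCD1, a deoxycytidylate deaminase, 218.91 and 91.42. They were the 2 of 8 deoxynucleotide genes with Swi6p, beside 4.07% of all promoters, and neither had Swi4p. Of 49 DNA replication genes, POL30, CDC45 and RFA2 had Swi6p without Swi4p (6.12%, against 4.07% of all promoters), CDC6 had both, RFC3 had Swi4p without Swi6p, RAD27 had Swi6p in 1 IP and 43 had no peak. The share is close to that of all promoters. POL30, the sliding clamp PCNA, scored 84.10 and 53.14. RFA2, a subunit of the single-strand binding protein RPA, scored 158.14 and 132.87. CDC45, part of the replicative helicase, scored 59.74 and 50.07, the latter the lowest score in the IP 2 list.

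Of 23 genes of repair, checkpoint and cohesion, DUN1 and PDS5 had Swi6p without Swi4p (8.7%, against 4.07% of all promoters). MCD1 had both factors (4.35%, against 1.59%). PDS5, a cohesion factor, scored 381.44 and 352.29. The checkpoint kinase DUN1 scored 361.58 and 79.87, a wider spread between the IPs. MCD1, the cohesin subunit cleaved at anaphase, scored 134.09 for Swi4p and 535.89 and 429.51 for Swi6p, and the licensing factor CDC6 162.26, 319.66 and 270.86. Both had a lower score in the Swi4p list than in either Swi6p list, as SWI4 did, and the depth of the lists is unknown.

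Calls near the limit decided several members. RAD27, the flap endonuclease of replication, had 63.5 in IP 2 and no peak in IP 1, and NRM1, the co-repressor of MBF, had 69.23 in IP 1 and no peak in IP 2. Both were left out, while CDC45 and CLB5 with similar scores were counted.

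Histone promoters showed the same dependence on calls. Of 16 histone and histone chaperone genes, ASF1, HHT2 and HHF2 had Swi6p without Swi4p (18.8%, against 4.07% of all promoters), and HTA2, HTB2, HHF1 and HHT1 had Swi6p in IP 2 alone. The divergent HHT2 and HHF2 pair, which encodes histones H3 and H4, scored 569.47 in IP 1 and 52.49 in IP 2. The histone chaperone ASF1 scored 136.45 and 95.96. No histone gene had a wild-type Swi4p peak.

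The few cell wall and polarity genes of this class were TIP1, SUN4, KRE6 and CDC42. SUN4 scored 504.75 and 343.04 for Swi6p, in a region shared with the ribosomal protein gene RPL9B, and KRE6, required for glucan synthesis, scored 141.12 and 63.06. TUB3, an alpha-tubulin gene, scored 504.13 and 503.31, and CDC19, the pyruvate kinase gene, 470.52 and 105.78. CDC19 was 1 of 19 genes of glycolysis and fermentation in the class (5.26%, near the 4.07% of all promoters), and TPI1, TDH3, FBA1, PFK2 and ADH1 had Swi6p in 1 of 2 IPs.

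Of the class with Swi6p and no Swi4p peak, 138 of 262 promoters (52.7%) belonged to genes in none of the lists. So did 55 of the 102 with both factors (53.9%) and 18 of the 23 with Swi4p and no Swi6p (78.3%). Of all 6430 promoters, 5669 were in none of the lists. Ribosomal protein, tRNA and small nucleolar RNA genes, which are among the most heavily transcribed genes of yeast, made up 106 of the 262 promoters (40.5%), in 73 regions, against 6 of the 102 with both factors (5.88%). Among all 6430 promoters, 488 were of these genes, so the share with both factors was near that of all promoters. Of 137 ribosomal protein genes 29 were in the class (21.2%), of 275 tRNA genes 44, and of 76 small nucleolar RNA genes 33 (43.4%), beside 4.07% of all promoters. The small nucleolar RNA list was added after the values were seen, so its count is a description. Protein-coding genes were 69.1% of this class and 93.1% of the class with both factors, beside 6002 of all 6430 promoters. The share with both factors was thus near that of all promoters.

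Scores in this group ranged widely, with a median mean Swi6p score of 149 (52.0 to 1221). The strongest ribosomal protein gene away from any Swi4p peak was RPL28 (1451.48 in IP 1 and 556.73 in IP 2). RPS19B had 2323.59 and 118.33, under a peak that in IP 1 was shared with TOS6, RPL18B and TRF5. The small nucleolar RNA cluster SNR72 to SNR78 (chromosome 13, 296729 to 299237) scored 1147.26 and 634.68 and by itself gave 9 promoters with SEC59 and BUD22. At each of these promoters the score was higher in IP 1 than in IP 2.

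Other regions with the highest Swi6p scores and no Swi4p peak were those of DIN7, GCN4, SNR128 with SNR190 and RPA34, and TEF2 with MUD1. DIN7, a mitochondrial nuclease induced by DNA damage (region at chromosome 4, 995095 to 996270), scored 1270.20 and 1068.80 and was the strongest single-promoter region of the class without Swi4p nearby. GCN4, the activator of amino acid synthesis, scored 1243.00 and 728.60 in a region (chromosome 5, 138072 to 140096) that also holds a tRNA gene. TEF2, which encodes elongation factor 1 alpha, scored 524.49 and 700.43.

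In a few cases the absence of Swi4p was a matter of peak edges. The Swi6p peak of RAD18, MRX16, YNCG0041W, AYR1 and RPS19B reached a Swi4p peak outside the promoter in at least 1 IP, at RPS19B in IP 1 alone. RAD18, a ubiquitin ligase of DNA repair, lies beside HCM1 and AYR1 beside SIM1, so their scores, 2644.20 and 1826.78 for RAD18, are those of the neighbour's peak. The other 257 promoters lay under Swi6p peaks that met no Swi4p peak.

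The position of the peaks is given by group of genes within the class, with no test. For the 9 Start and DNA genes, POL30, DUN1, RNR1, CLB6, DCD1, CDC45, PDS5, RFA2 and CLB5, the mean of the 2 Swi6p peak midpoints lay inside the 600 bp promoter at 8 (88.9%), at a median of 300 bp upstream of the gene start. For the 29 ribosomal protein genes it lay inside the promoter at 1 and downstream of the start at 22 (75.9%), at a median of 427 bp downstream of the start. Of the 44 tRNA genes 34 and of the 33 small nucleolar RNA genes 20 had the midpoint downstream of the start. The peaks are broad, so a midpoint downstream can lie beyond the gene, above all at the RNA genes, which are short compared with the peaks.

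Over whole classes, the midpoint was inside the promoter at 38.2% of promoters with both factors and at 20.2% of those with Swi6p and no Swi4p, and downstream of the start at 29.4% and 48.1%. The 17 Start, transcription factor, TOS, HO and DNA genes with both factors had it inside at 7, upstream at 6 and downstream at 4. The concentration inside the promoter thus described the 9 genes without Swi4p and was less pronounced at their counterparts with Swi4p. No test was made on positions, since promoters share peaks.

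**Figure D3:**
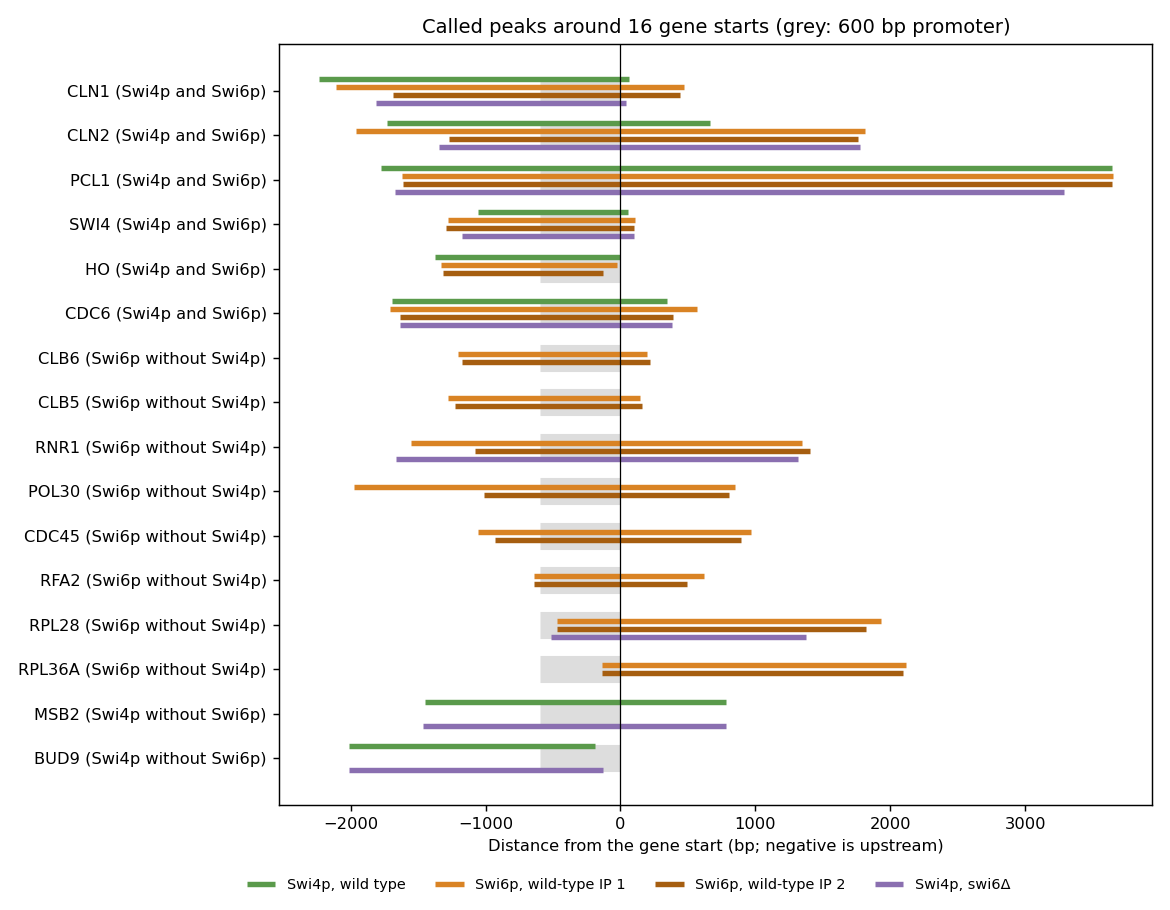
Called peaks around 16 gene starts, by distance from the gene start in bp (negative is upstream), with the 600 bp promoter in grey and the class in parentheses. Lines are peaks of Swi4p in wild type, Swi6p in wild-type IPs 1 and 2, and Swi4p in swi6Δ. Swi6p peaks span the promoter at CLB6, CLB5, POL30, CDC45 and RFA2 with no Swi4p peak in either strain. At RPL28 and RPL36A they lie mostly downstream of the gene start, with mean midpoints 702 and 985 bp from it, and reach past the start of the next gene.

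Swi4p without Swi6p was rare and mostly weak. The 23 promoters were APT2, MSB2, BUD9, TPO2, KCH1, LAC1, CAP1, JIP3, MID2, ADE17, RPL15B, YMR122C, NCW1, GID8, GAT2, RFC3, PDR16, PTH4, SKM1, ATG40, SLP1, AMF1 and SUT2. All were of protein-coding genes, as were 6002 of all 6430 promoters. Membrane sensors and polarity genes were among the 23. MID2, a sensor of cell wall stress that shares its promoter region with JIP3, scored 304.07 for Swi4p. MSB2, a mucin-like sensor of osmotic stress and filamentous growth, scored 82.24, and BUD9, a marker of the bud site, 90.95.

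The single top score in this class, 3100 at RFC3, a clamp loader subunit, belonged to the peak over PCL1, whose edge reached the RFC3 promoter while the Swi6p peaks ended before it. ATG40 and SLP1 (360.57) likewise lay under a peak that met Swi6p outside their promoters. Without these 3, the class held 20 promoters, with the highest score at MID2 and JIP3, and next GAT2 and GID8 (293.90), AMF1 (190.61) and APT2 (168.08). None of the 41 Start, cell cycle transcription factor, TOS and HO genes was in the class, which holds 0.358% of all promoters. With so small a share, their absence does not set the class apart.

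The spread between the Swi6p IPs can be read from the calls that formed the classes, as a description. With a Swi4p peak, 102 of 114 promoters found in Swi6p IP 1 (89.5%) and 102 of 110 found in IP 2 (92.7%) had a peak in the other IP, a mean of 91.1% ± 2.3 (SD, n = 2). Without a Swi4p peak the shares were 262 of 436 (60.1%) and 262 of 340 (77.1%), a mean of 68.6% ± 12 (SD, n = 2). The scores of the 2 groups also differed, as given above. No test was made, since the rule used these same calls and 2 against 2 values cannot go below 0.333 in a two-sided exact permutation test.

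The same calls counted by Swi6p support gave a Swi4p peak at 23 of 5794 promoters with no Swi6p peak (0.397%), at 20 of 272 with Swi6p in 1 IP (7.35%) and at 102 of 364 with Swi6p in both (28.0%). These counts restate the classes and were not tested. Among the 364 promoters ordered by mean Swi6p score in 4 near-equal groups, Swi4p was present at 11.7% and 8.99% of the lower groups, at 28.6% of the next and at 63.3% of the highest, whose scores ran from 583 to 3100. CLB6, GCN4, DIN7 and RNR1 show that a strong Swi6p peak also occurred without a Swi4p call. The mean Swi6p scores of the 9 Start and DNA genes without Swi4p ran from 54.9 to 551, with a median of 155, so part of the class had scores at which Swi4p was seldom called at any gene.

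Swi4p in swi6Δ cells gave a measurement that had not formed the classes. There 182 Swi4p peaks were called, overlapping 392 promoters (6.1%). They were found at 96 of the 102 promoters with both factors (94.1%), at 18 of the 23 with Swi4p and no Swi6p (78.3%) and at 103 of the 262 with Swi6p and no Swi4p (39.3%). At promoters with no peak in wild type the share was 2.27%. Each strain has 1 Swi4p IP, from its own culture, so these shares have no replicate error.

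All 23 cell wall, budding and cell wall integrity genes with both factors had Swi4p in swi6Δ. Of the 15 Start, transcription factor, TOS and HO genes, 13 did, the exceptions being HO and NDD1. The other promoters with both factors and no swi6Δ peak were RPP1, TRF5, SEC21 and NUD1, each at the edge of a region or sharing it with a neighbour. HO was thus the exception among the 6 promoters of the TOS and HO list.

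Scores of the 2 strains are given side by side, since the depth of neither is known. CLN1, CLN2 and PCL1 stood at 3100 in both, a value at which the scores of many strong peaks tie, so a change between the strains could be hidden there. SWI4 went from 112.35 in wild type to 885.39 in swi6Δ and GAS1 from 405.22 to 1483.14, while TOS6 had 3100 and 53.23. Among the 96 promoters with both factors and a peak in each strain, the score was higher in swi6Δ at 48, lower at 25 and equal at 23. Equal scores at the tie value of 3100 do not show equal binding.

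Of the promoters with Swi4p and no Swi6p, all 18 with a peak in both strains scored higher in swi6Δ, with medians of 125 and 553. MSB2 had 82.24 in wild type and 1078.68 in swi6Δ. SKM1, a kinase of the PAK family, and its neighbour PTH4 had 94.69 and 1574.96. BUD9 had 90.95 and 259.20, and SUT2, a relative of the factor Sut1p, 71.71 and 505.16. The 5 promoters with no peak in swi6Δ were RFC3, LAC1, CAP1, ATG40 and SLP1, 3 of which lay at the edge of a peak that met Swi6p.

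Among the promoters with Swi6p and no Swi4p in wild type, 39.3% had Swi4p in swi6Δ, and the gene groups are given beside that share with no test of a difference. Of the 9 Start and DNA genes, Swi4p was called at RNR1 (191.39) and at none of CLB5, CLB6, POL30, CDC45, RFA2, DCD1, DUN1 and PDS5. Among the 106 ribosomal protein, tRNA and small nucleolar RNA genes it was called at 46 (43.4%), near the 36.5% of the other promoters of the class. RPL28 had 409.63, the SNR72 to SNR78 cluster 335.98 and RPS13 59.07. The cell wall genes TIP1 (167.99, again at the edge of the peak), SUN4 (198.76) and KRE6 (184.98) had a swi6Δ peak, as had GCN4, HHT2 with HHF2 (113.29) and TUB3 (124.13). At GCN4 the swi6Δ peak that overlapped the Swi6p peaks scored 149.85, and the highest score at the promoter, 348.92, belonged to a separate peak beyond them. DIN7 and CDC42 had none.

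The share in swi6Δ also followed the Swi6p score. Over the 4 groups of the 364 promoters it was 20.2%, 37.1%, 70.3% and 92.2% from the lowest to the highest scores. RNR1 had the second highest mean Swi6p score of the 9 Start and DNA genes, after CLB6, and CLB6 had no Swi4p peak in either strain. The part of the Swi6p score in the shares of the gene groups was not tested.

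**Figure D4:**
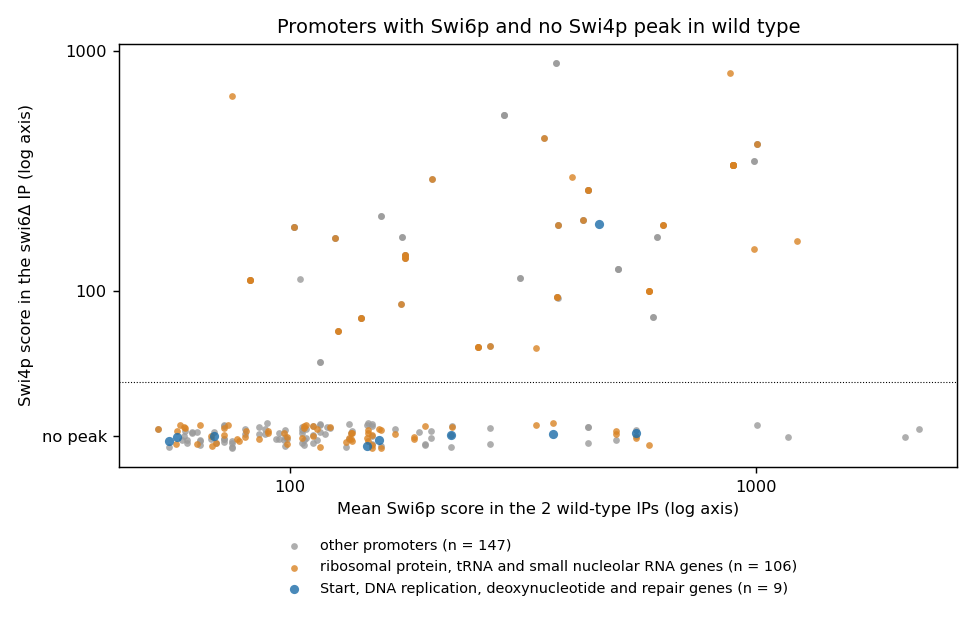
Promoters with Swi6p and no Swi4p peak in wild type, by mean Swi6p score of the 2 wild-type IPs and Swi4p score in the swi6Δ IP (both log axes), with promoters without a swi6Δ peak in the band below the dotted line. Each point is a promoter, jittered vertically in that band. Of the 9 Start and DNA genes 1 has a swi6Δ peak, and of the 106 ribosomal protein, tRNA and small nucleolar RNA genes 46 have one.

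Swi6p in swi4Δ cells gave 3 and 8 peaks in the 2 IPs, at 5 and 17 promoters (0.0778% and 0.264%). None of the 262 promoters with Swi6p and no Swi4p in wild type had a peak in either IP, CLB6, RNR1 and POL30 included, and none of the 23 with Swi4p and no Swi6p did. Of the 102 with both factors, YHB1 had a peak in IP 1 (64.08), and SWI4 with its neighbour LSM4 in IP 2 (85.58). In that strain the SWI4 gene is the replaced one. Lists of 3 and 8 peaks are too short to separate the classes, and the depth behind them is unknown.

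Peaks of the 4 other tagged factors of the study were counted at the same promoters, in 3 wild-type IPs each. Values of Gcn4p in rtg3Δ and of Sut1p in nrg1Δ cells, with 3 IPs each, are given beside them. Nrg1p and Sut1p were assayed in rich medium, and Gcn4p and Rtg3p after rapamycin. Promoters with both Swi factors had peaks of 2 or more other factors in wild type at 9.8%, close to the 9.95% of all promoters, those with Swi6p and no Swi4p at 13.7%, and those with Swi4p and no Swi6p at 21.7% (5 of 23).

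Sut1p, a zinc cluster factor, had peaks in its 3 wild-type IPs at 2.89%, 6.83% and 11.4% of all promoters, a mean of 7.04%. Its mean was 14.4% (5.88 to 25.5) at promoters with both Swi factors, 11.1% (6.87 to 16) with Swi6p and no Swi4p, and 23.2% (13.0 to 34.8) with Swi4p and no Swi6p. Across IPs these ranges overlapped between the classes, and the first 2 also overlapped that of all promoters, while the last lay above it. Within each wild-type IP the share was highest with Swi4p and no Swi6p (21.7%, 34.8% and 13.0%). With both factors it was above that of all promoters each time (5.88%, 25.5% and 11.8%), by little in IP 3. With Swi6p and no Swi4p it was below that of all promoters in IP 3 (10.3%). In nrg1Δ the share with Swi4p and no Swi6p was 13.0%, 39.1% and 13.0%, against 12.2%, 16.3% and 18.2% of all promoters. With Swi6p and no Swi4p it was 26.3%, 22.9% and 26.3% there, above that of all promoters in each IP. With both factors it was 16.7%, 30.4% and 17.6%, above in IPs 1 and 2 and below in IP 3. Nrg1p, a repressor, was rare everywhere, at 0.28%, 0.218% and 1.32% of all promoters, and at 1.31% on average with both factors, 1.78% with Swi6p and no Swi4p and none with Swi4p and no Swi6p.

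Gcn4p, the activator of amino acid synthesis, was at 9.78%, 10.1% and 10.5% of all promoters. It was at 5.23% (4.9 to 5.88) with both factors, at 12.7% (10.3 to 14.5) with Swi6p and no Swi4p and at 23.2% (17.4 to 30.4) with Swi4p and no Swi6p. In wild type these ranges did not overlap each other, although the middle one overlapped that of all promoters. In the 3 Gcn4p IPs of rtg3Δ cells the class ranges overlapped, at 0 to 7.84%, 5.34 to 12.2% and 4.35 to 17.4% in the same order. All promoters ranged from 6.87% to 9.95% there. Rtg3p, a factor of the retrograde response, was at 5.46%, 1.94% and 3.53% of all promoters, at 1.31% with both factors, at 6.36% (3.44 to 10.3) with Swi6p and no Swi4p and at 5.8% with Swi4p and no Swi6p. The differences were not tested, as promoters share peaks and the last class has 23 promoters. At the ribosomal protein, tRNA and small nucleolar RNA genes with Swi6p and no Swi4p, Sut1p was at 13.2% and Gcn4p at 10.1%, and at the rest of that class at 9.6% and 14.5%. The part of peaks common to several tagged factors in the classes was not tested.

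**Figure D5:**
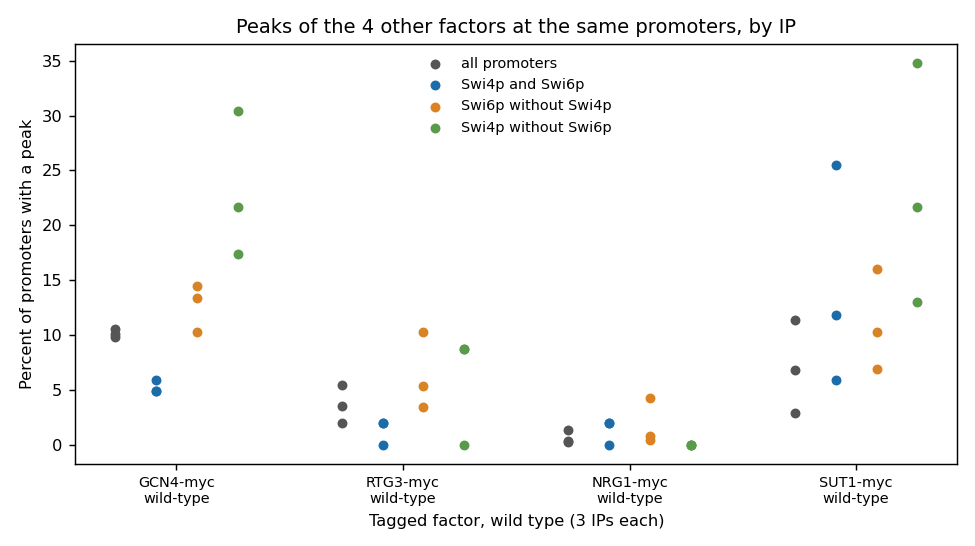
Percent of promoters with a peak of each other factor in wild type, by IP, for all promoters and for the 3 classes, with 3 points per factor. Gcn4p lies at 4.9% to 5.88% of promoters with both Swi factors and at 10.3% to 14.5% of those with Swi6p and no Swi4p, while the points of Sut1p overlap between classes across IPs.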

How the data were processed

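ChIP-Seq peak lists of 30 IPs from 50 samples (IP and INPUT) were used, 6 of them of Swi4p and Swi6p. Cells were fixed in 1% formaldehyde for 15 min, library fragments of 200 to 600 bp were selected, and libraries took 15 PCR cycles and reads of 42 bases. Submitters' processing notes name CASAVA 1.8, Novoalign 2.07.0, MACS 1.4.0rc2 and build R64. The authors kept uniquely aligned reads and called peaks in each IP against INPUT without pooling. The samples hold 1 wild-type SWI6-myc INPUT for the 2 Swi6p IPs, so the calls of these IPs are not independent of a shared control. The deposited value of each peak is its MACS score. No read counts were used, so depth and the precision it gives are unknown.

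Promoters were 600 bp upstream of genes in the RefSeq R64 table, with strand from the systematic name (6430 of 6431 nuclear genes), and overlapped a peak by at least 1 bp. Peak starts below the first base (21) were set to 1. A promoter under several peaks took the highest score, and an IP without a peak counted as 0 in mean scores. Peaks of the wild-type Swi4p and Swi6p lists that overlapped were merged into regions. Overlap calling was tested on simulated peaks. Shares were computed per IP, and no test was run across promoters.

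Members and gene lists were chosen with earlier results of these data known, the small nucleolar RNA list after the values were seen. The other 14 lists come from textbook knowledge. Genes named are list members in a class, the 10 strongest regions of each class, SWI4, SWI6, MBP1, and every promoter with Swi4p and no Swi6p. CLB1, CLB2, genes sharing a named region, those with Swi6p in 1 IP and those named for a swi4Δ peak or a lost swi6Δ peak were named after their values were seen. Motifs were not analysed here, since no genome sequence was used. Alternatives were other scores, overlaps, promoter lengths, replicate rules and exclusions. Python 3.11.15, NumPy 2.4.6, pandas 2.3.3, SciPy 1.17.1 and Matplotlib 3.10.9 were used.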

Additional observations from a re-analysis of the deposited data

How the results depend on the processing

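Of 76 values under alternative settings, 61 stayed within 1.5 times the count, inside the 95% binomial interval of the share in swi6Δ or within 1 SD of the share in the left-out IP. The other 15 moved, and none changed the order of the classes in their share with Swi4p in swi6Δ except where given here. Counting regions in place of promoters gave 50 with both factors, 108 with Swi6p and no Swi4p and 15 with Swi4p and no Swi6p. The 262 promoters with Swi6p and no Swi4p became 138 with scores of at least 100, 68 with the 73 highest peaks of each list, 514 with Swi6p in at least 1 IP, 340 to 436 when either IP was left out, and 156 without ribosomal protein, tRNA and small nucleolar RNA genes. Their share with Swi4p in swi6Δ, 39.3%, became 60.9% with scores of at least 100, 72.1% with equal numbers of peaks, 26.3% with Swi6p in at least 1 IP, and 29.6% to 32.1% when either IP was left out. With equal numbers of peaks it passed the 69.8% of promoters with Swi4p and no Swi6p. The 23 promoters with Swi4p and no Swi6p became 53 with equal numbers of peaks and 31 to 35 when either Swi6p IP was left out. The size of both single-factor classes therefore depends on how many peaks each list is given. The exclusions of ribosomal protein, tRNA and small nucleolar RNA genes and of peaks that reach a partner peak were chosen after seeing the data. Alternatives that needed motifs were not run. No paired analysis was possible because the results come from no test and the Swi4p strains have 1 IP each.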

Other observations

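Promoters with Swi6p in 1 of the 2 wild-type IPs and no Swi4p numbered 252, in 122 regions. Of these, 81.0% were of protein-coding genes, against 6002 of all 6430 promoters. The 252 included 37 of 137 ribosomal protein genes, 34 of 275 tRNA genes and 12 of 76 small nucleolar RNA genes, beside 3.92% of all promoters. With those in both IPs and with Swi4p, 68 of 137 ribosomal protein genes (49.6%) had a Swi6p peak in at least 1 IP, against 9.89% of all promoters. Swi4p in swi6Δ was called at 12.7% of the 252, below the 39.3% of promoters with Swi6p in both IPs and no Swi4p. Of the 20 promoters with Swi4p and Swi6p in 1 of 2 IPs, 12 (60.0%) had Swi4p in swi6Δ. They included PMA1, the plasma membrane proton pump, at 310.06 for Swi4p and 242.8 for Swi6p in IP 2, SFG1, a regulator of growth form, at 429.67 and 159.96 in IP 2, and ACM1, an inhibitor of the anaphase-promoting complex, at 58.64 and 72.45 in IP 2. These 3 genes were picked out after their values were seen.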
